A study of Homo sapiens with 6 samples.

Results

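The proteasome is the barrel-shaped protease that degrades most ubiquitin-tagged proteins of the cell, and its subunits and assembly factors were followed here in cells labelled HCT116, a human colorectal carcinoma line. Members were all genes with a PSMA, PSMB, PSMC, PSMD, PSME, PSMF or PSMG number in the platform annotation, without PSMC3IP and pseudogenes, plus POMP. The rule took 46 of the 18132 genes that have a probe set of 1 gene, with 114 of the 44988 such probe sets. Of these, 45 are subunits, activators, inhibitors or assembly factors, and 1, PSME3IP1, encodes a protein that binds the activator encoded by PSME3. PSMA6, PSMC5, PSMD7 and PSMD13 were not analysed here, because they have no probe set that names them alone.

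The series holds 6 Affymetrix arrays of biotin-labelled total RNA. In 3 of them the cells carry the treatment label CSF3 and in 3 the label control (Ctrl), and both groups were grown in the same serum-containing medium. CSF3 is the gene of granulocyte colony-stimulating factor, and the labels do not say whether it was added as protein, expressed from a vector or altered otherwise, nor whether the arrays of a group hold RNA of separate cultures. All p-values below thus rest on the spread between 3 and 3 arrays, and that spread may be technical.

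The 20S core of the proteasome is a stack of rings, the outer ones built from alpha subunits (PSMA) and the inner ones from beta subunits (PSMB), of which PSMB5, PSMB6 and PSMB7 carry the proteolytic sites. A 19S regulatory particle caps the core: its base holds the ATPases (PSMC) that unfold substrates, and its lid (several PSMD subunits) holds PSMD14, which removes ubiquitin. Interferon-gamma and other inflammatory signals are known to replace the proteolytic subunits with PSMB8, PSMB9 and PSMB10, forming the immunoproteasome, which favours peptides for MHC class I. In colon carcinoma cells as in other cells, loss of proteasome activity is known to raise proteasome genes together through the transcription factor NFE2L1.

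Some facts of the arrays bear on all values below. Values are the deposited signals per probe set, read as log2 because they run from 0.81 to 12.65, and a change is the CSF3 mean minus the Ctrl mean, given with its standard error. On the gene level the upper quartile lay at 6.06 to 6.10 on the CSF3 arrays and at 6.28 to 6.29 on the Ctrl arrays, and the lower quartile at 2.88 to 2.92 on the CSF3 arrays and at 2.53 to 2.56 on the Ctrl arrays. Bright genes thus tended to read lower and dim genes higher on the CSF3 arrays: the median change was -0.13 in genes brighter than the median gene and 0.31 in the dimmer ones. The 3' minus 5' gap of GAPDH, a sign of RNA integrity and labelling, was 0.68 ± 0.003 on the CSF3 arrays and 0.31 ± 0.007 on the Ctrl arrays (SD, n = 3 each), and its part in the results was not tested. The label HCT116 was only partly borne out by markers. Among 6 epithelial markers, KRT18 averaged 7.48 ± 0.06 on the CSF3 arrays and 7.26 ± 0.01 on the Ctrl arrays, while EPCAM and CDH1, adhesion genes usually abundant in this line, averaged 3.30 ± 0.10 and 2.24 ± 0.04 on the CSF3 arrays, against 3.63 ± 0.05 and 2.20 ± 0.09 on the Ctrl arrays, below the gene median of 4.42 to 4.45. KRT19 and CEACAM5 also lay below it in both groups, and KRT8 lay above it. Of 4 measured markers of other cell types (PTPRC, CD3E, COL1A1, PECAM1), 2 were higher in CSF3, against 45.4% of all genes. All 4 averaged below the gene median in both groups, and 5767 of the 9066 genes in the dimmer range were higher in CSF3. The summed log2 signal of the 4 markers was 13.28 to 14.06 on the CSF3 arrays and 11.73 to 12.28 on the Ctrl arrays, where dim genes had a median change of 0.31. The corresponding sum of the epithelial list was 24.23 to 24.58 on the CSF3 arrays and 24.56 to 24.85 on the Ctrl arrays. The part of these markers in the results was not tested.

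Proteasome genes moved little and in both directions. By limma across all genes, 10 of the 46 rose and 18 fell in CSF3, and 18 did not pass the test at an adjusted p of 0.05. The shares over all genes tested were 45.4% higher and 27.1% lower, or 72.5% in either direction. Among the 4533 brightest genes, where 43 of the members lie, 22.8% rose and 50.2% fell. The median change was -0.06 over the members, -0.15 over those 4533 genes and 0.16 over all genes. Large changes were few: 5 of 46 members passed the test with a change of at least 0.5 in either direction, against 29% of all genes, and 0 members changed by 1 or more. The 18 members that did not pass had changes from -0.18 to 0.15, and their 95% intervals together spanned -0.43 to 0.34, so for several of them moderate changes cannot be told from none.

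**Figure D1:**
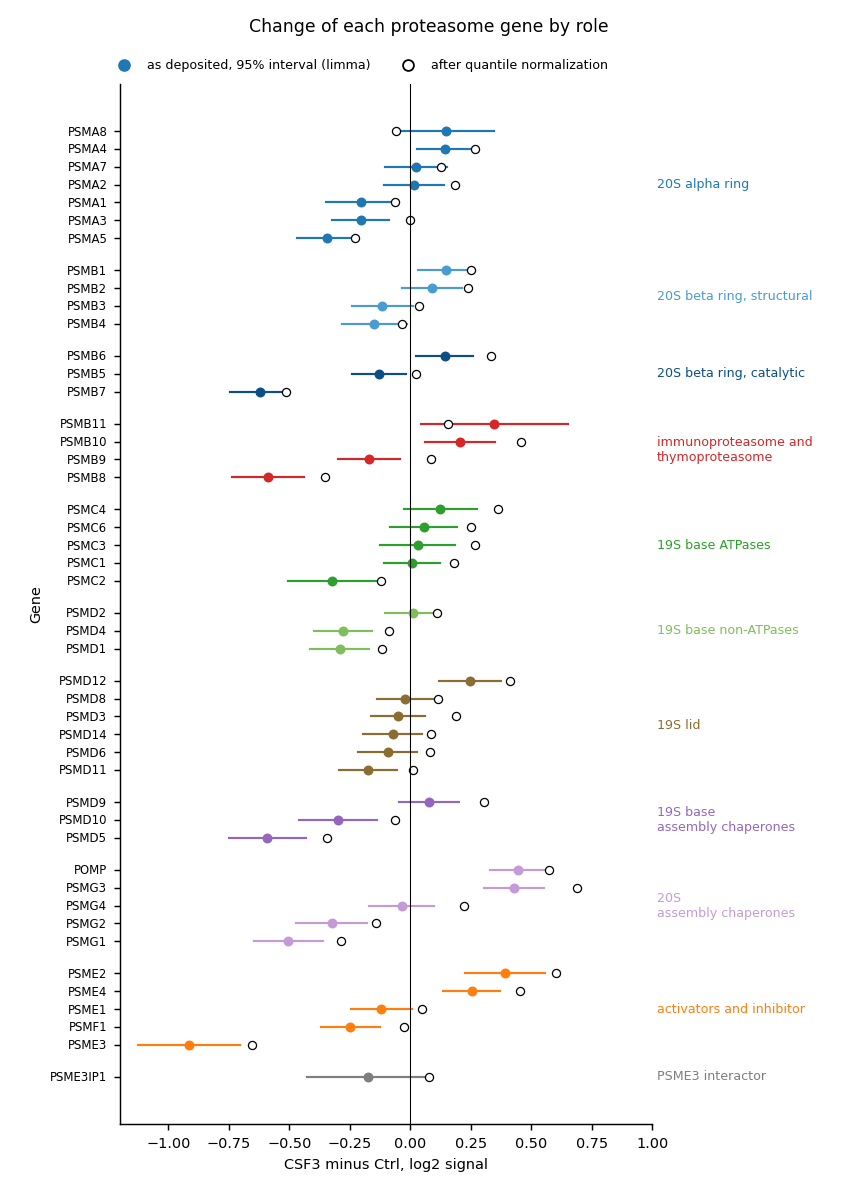
Change (CSF3 minus Ctrl, log2 signal) of each of the 46 genes, grouped by role. Filled points with bars give the deposited values with 95% limma intervals, and open circles the change after quantile normalization. Most points lie within 0.5 of 0, PSME3 lies lowest at -0.92 and POMP highest at 0.45, and open circles lie to the right of nearly all filled ones.

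The split between rises and falls depended on the scaling of the arrays. After quantile normalization of the deposited values, 18 members rose and 6 fell, against 39.8% and 19.7% of all genes and 40.3% and 31.7% of the 4533 brightest, and the median over the members turned to 0.08. After cyclic loess 20 members rose and 6 fell, against 36.9% and 21.2% of all genes. None of the members was called in opposite directions as deposited and after quantile normalization. Of the 18 falls as deposited, 12 were lost and 6 kept, and 9 of the 10 rises were kept. Across the deposited values, quantile normalization and cyclic loess, 9 members rose in all 3 scalings (PSME2, POMP, PSMG3, PSME4, PSMD12, PSMB10, PSMB1, PSMA4 and PSMB6) and 6 fell in all 3 (PSME3, PSMB7, PSMD5, PSMB8, PSMG1 and PSMA5), against 29.5% and 18.2% of all genes. Several calls were lost when 1 array was left out. Leaving out any 1 of the Ctrl arrays left 5 rises as deposited, and PSMA4, PSMB1, PSMB6 and PSMB10 lost the call without each of the 3. Over the 6 fits without 1 array their limma adjusted p reached 0.101, 0.104, 0.112 and 0.0562 in that order. PSMA4 also lost it without CSF3 array 3, PSMB1 without CSF3 array 2 and PSMB6 without CSF3 array 1 or 2. Among the falls, PSMB4, PSMB5 and PSMB9 lost it without each of the Ctrl arrays, and PSMA1 and PSMD11 without Ctrl array 1 or 3. PSMB5 also lost it without each CSF3 array, PSMB4 without CSF3 array 2 or 3 and PSMB9 without CSF3 array 2. PSMB11 lost its rise in 5 of the 6 fits without 1 array. The other 5 rises and 13 falls were called in all 6 such fits. The role-by-role account below names these calls first. Its counts as deposited stand beside 45.4% higher and 27.1% lower over all genes.

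**Figure D2:**
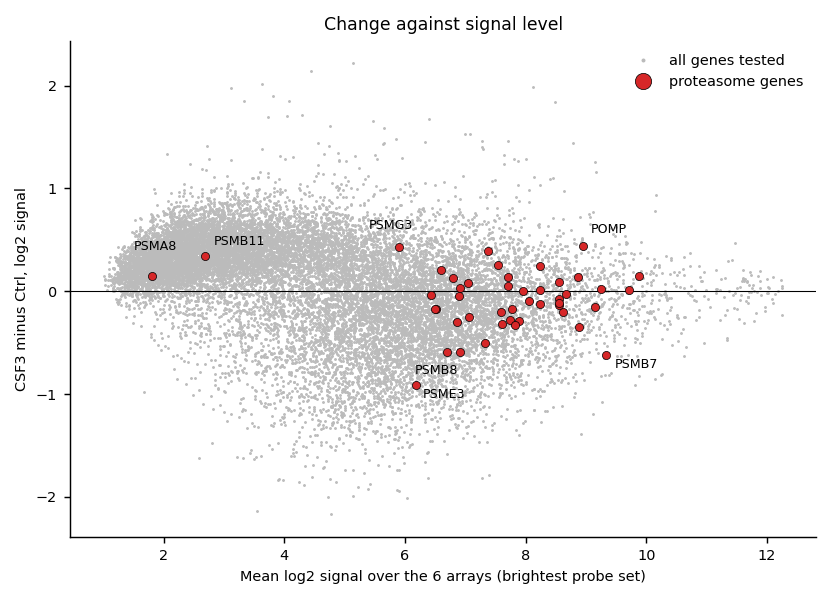
Change (CSF3 minus Ctrl, log2 signal) against mean log2 signal over the 6 arrays for all 18132 genes (grey) and for the proteasome genes (red). All but PSMA8 and PSMB11 are brighter than the median gene, in the range where the bulk of genes reads lower in CSF3.

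In the alpha ring of the core, 1 of 7 measured members rose, 3 fell and 3 did not pass. PSMA5 gave 8.75, 8.73 and 8.66 on the CSF3 arrays and 9.03, 9.07 and 9.07 on the Ctrl arrays, a change of -0.34 ± 0.05 (limma adjusted p = 0.000942). It was the only alpha subunit lower in all 3 scalings, with -0.23 after quantile normalization. PSMA3 and PSMA1 fell by 0.21 ± 0.05 and 0.20 ± 0.06 as deposited, and both calls were lost after quantile normalization. PSMA4 rose by 0.14 ± 0.05 (limma adjusted p = 0.0303). PSMA2 and PSMA7 changed by 0.01 ± 0.05 and 0.02 ± 0.05 and did not pass. PSMA8, the alpha subunit of the testis form, gave 1.80 to 2.07 in CSF3 and 1.69 to 1.80 in Ctrl, at the dim end of the table, where no detection call says whether the gene is on. Among the structural beta subunits PSMB1 rose by 0.15 ± 0.05 and PSMB4 fell by 0.15 ± 0.06, while PSMB2 and PSMB3, with changes of 0.09 and -0.12, did not pass. Over the 14 core members the median change was -0.05 as deposited and 0.03 after quantile normalization.

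The proteolytic subunits did not move together. PSMB7, which carries the trypsin-like site, gave 9.07, 9.0 and 8.98 on the CSF3 arrays and 9.67, 9.62 and 9.62 on the Ctrl arrays. All CSF3 arrays lay below all Ctrl arrays, a 1.54-fold lower signal (-0.62 ± 0.05, limma adjusted p = 6.70e-05), which was the furthest fall of any core subunit. PSMB6, which carries the caspase-like site, gave 7.80, 7.76 and 7.74 in CSF3 and 7.67, 7.61 and 7.61 in Ctrl, a rise of 0.14 ± 0.05 (limma adjusted p = 0.0357) that was lost in 5 of the 6 fits without 1 array. PSMB5, the chymotrypsin-like subunit and the main target of the drug bortezomib, gave 8.49, 8.49 and 8.48 in CSF3 and 8.64, 8.6 and 8.6 in Ctrl. Its groups did not overlap, but the change on this brightest probe set was small (-0.13 ± 0.05, limma adjusted p = 0.0432). It turned to 0.02 after quantile normalization. The dimmer probe sets of PSMB5 fell further, with changes from -0.43 to -0.34, and all were called lower. After quantile normalization their changes ran from -0.21 to -0.11, and only the change of -0.11 was not called. With all probe sets averaged, PSMB5 changed by -0.34 (limma adjusted p = 0.000302).

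The immunoproteasome subunits also diverged. PSMB8, the counterpart of PSMB5, gave 6.71, 6.6 and 6.52 on the CSF3 arrays and 7.19, 7.24 and 7.17 on the Ctrl arrays, a 1.5-fold lower signal (-0.59 ± 0.06, limma adjusted p = 0.00021). Its second brightest probe set fell further, by 1.15 ± 0.07, and its dimmest one, at a mean of 2.34, changed by 0.39 ± 0.21 without passing. PSMB9, the counterpart of PSMB6, gave 6.44, 6.37 and 6.48 in CSF3 and 6.57, 6.58 and 6.65 in Ctrl. This fall of 0.17 ± 0.06 (limma adjusted p = 0.0253) turned to a change of 0.08 after quantile normalization and was not called there (limma adjusted p = 0.207). PSMB10, the counterpart of PSMB7, gave 6.65, 6.81 and 6.64 in CSF3 and 6.49, 6.49 and 6.5 in Ctrl, a rise of 0.21 ± 0.06 (limma adjusted p = 0.0184), and its other probe sets changed by 0.11 and 0.23. PSMB11, which in thymus epithelium takes the place of PSMB5 and PSMB8, gave 3.09, 2.59 and 2.90 in CSF3 and 2.59, 2.37 and 2.58 in Ctrl. Its groups overlapped, its rise of 0.35 ± 0.13 (limma adjusted p = 0.0435) lay near the 0.31 median of dim genes, and it was no longer called with quantile-normalized values (0.16).

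**Figure D3:**
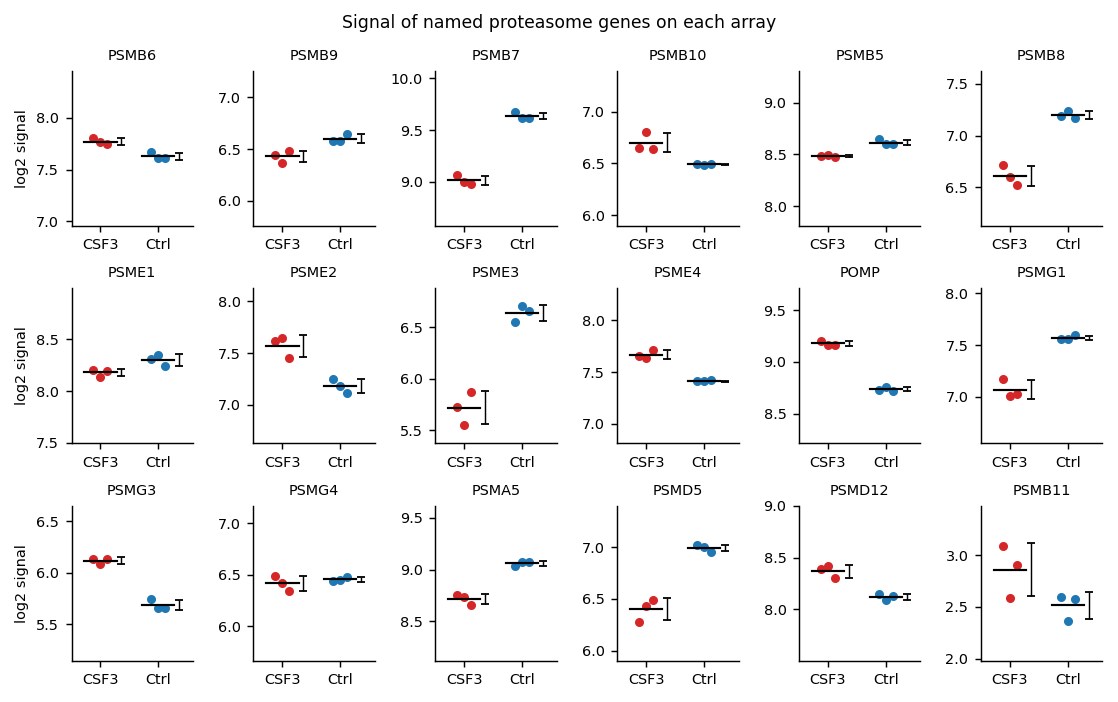
Log2 signal of the brightest probe set on each array for 18 of the genes described array by array, CSF3 (red) left of Ctrl (blue). Horizontal lines are means and bars are SD over 3 arrays, and every panel spans the same range of log2 units. The groups are widest apart in PSME3, PSMB7, PSMD5 and PSMB8, which were lower in CSF3.

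PSMB8, PSMB9, PSMB10, PSME1 and PSME2 are known for induction by interferon, and IRF1, a transcription factor of that response, rose on these arrays. Their promoter windows, from RefSeq on GRCh38.p14 and running from 250 bases before to 50 bases after the annotated start, are shown for this reason. The window of PSMB9 comes last because it holds no match. Capitals mark matches, on either strand, to the core of an interferon-stimulated response element, a pair of GAAA blocks with any 2 bases between them.

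PSMB8, chr6:32843998-32844297, minus strand: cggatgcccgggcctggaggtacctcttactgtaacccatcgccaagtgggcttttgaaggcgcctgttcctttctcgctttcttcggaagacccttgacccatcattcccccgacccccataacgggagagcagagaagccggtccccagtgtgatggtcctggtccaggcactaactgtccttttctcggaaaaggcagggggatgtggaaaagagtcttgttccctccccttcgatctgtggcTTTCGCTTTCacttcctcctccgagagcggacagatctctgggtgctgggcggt
PSMB10, chr16:67936801-67937100, minus strand: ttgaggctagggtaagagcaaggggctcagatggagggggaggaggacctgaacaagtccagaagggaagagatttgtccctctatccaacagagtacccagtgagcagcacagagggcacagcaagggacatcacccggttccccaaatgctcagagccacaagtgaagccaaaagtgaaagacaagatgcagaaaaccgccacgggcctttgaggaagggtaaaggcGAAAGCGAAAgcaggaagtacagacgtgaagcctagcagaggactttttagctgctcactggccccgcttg
PSME1, chr14:24135944-24136243, plus strand: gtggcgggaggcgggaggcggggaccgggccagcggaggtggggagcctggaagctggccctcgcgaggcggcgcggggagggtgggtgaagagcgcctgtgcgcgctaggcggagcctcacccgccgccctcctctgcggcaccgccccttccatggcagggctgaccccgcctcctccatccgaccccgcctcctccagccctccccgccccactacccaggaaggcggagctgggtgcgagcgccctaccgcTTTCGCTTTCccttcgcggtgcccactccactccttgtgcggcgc
PSME2, chr14:24146561-24146860, minus strand: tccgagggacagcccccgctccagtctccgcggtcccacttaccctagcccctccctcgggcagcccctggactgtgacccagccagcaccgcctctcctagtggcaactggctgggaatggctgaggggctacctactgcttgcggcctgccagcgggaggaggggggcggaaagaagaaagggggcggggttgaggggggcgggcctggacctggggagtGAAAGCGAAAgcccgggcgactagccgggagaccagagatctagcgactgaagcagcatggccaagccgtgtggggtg
PSMB9, chr6:32853942-32854241, plus strand: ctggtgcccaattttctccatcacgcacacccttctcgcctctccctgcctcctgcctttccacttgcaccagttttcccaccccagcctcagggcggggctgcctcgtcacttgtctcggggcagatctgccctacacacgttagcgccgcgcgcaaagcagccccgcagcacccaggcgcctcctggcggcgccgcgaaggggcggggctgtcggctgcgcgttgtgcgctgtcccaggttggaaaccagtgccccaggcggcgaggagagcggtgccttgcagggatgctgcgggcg

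The first 4 windows hold the same letters, GAAAGCGAAA in PSMB10 and PSME2 and their reverse complement TTTCGCTTTC in PSMB8 and PSME1, beginning at positions -21, -28, -4 and 5 relative to the start in that order. The printed PSMB9 window, the only one of the table for that gene, holds no match. A second window of PSMB8 without a match is not shown. Beside one shared set of letters, the changes were -0.59 in PSMB8, 0.21 in PSMB10, -0.12 in PSME1 and 0.39 in PSME2. Of the 40 members with a window, 7 (17.5%) held this motif, against 4.38% of the 27305 genes with a window, and of these 7, which also include PSMA4, PSMB4 and PSMG4, 3 rose, 2 fell and 2 did not pass. The motif TGACNNNGC, the core of the antioxidant response element through which NFE2L1 acts, was in 14 members (35.0%), against 16.1% of all genes. TGANTCAGC, a related motif that TGACNNNGC does not contain, was in 1 member, PSMD9 (2.5% against 1.66%). The gamma-activated type TTCNNNGAA was in 8 (20% against 9.38%) and CCAAT in 19 (47.5% against 39.7%). An NF-kB consensus motif was in 0 (0.227% of all genes), a form of it with 2 free bases in 2 (5% against 2.33%), and TGACGTCA, the cyclic AMP response element, in 0 (2.25%). Motifs were searched on both strands and can overlap, and a match is a description of letters, not a bound site.

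Each immunoproteasome subunit was set against the core subunit it replaces, within each array, which removes any scaling that acts alike on both genes. These pairs were chosen after the data were seen. PSMB10 minus PSMB7 was -2.42, -2.19 and -2.34 on the CSF3 arrays and -3.18, -3.13 and -3.12 on the Ctrl arrays, a shift of 0.83 ± 0.07 toward PSMB10. PSMB8 minus PSMB5 was -1.77, -1.89 and -1.96 in CSF3 and -1.46, -1.36 and -1.43 in Ctrl, a shift of -0.46 ± 0.06, away from PSMB8. PSMB9 minus PSMB6 was -1.37, -1.39 and -1.26 in CSF3 and -1.09, -1.03 and -0.96 in Ctrl, a shift of -0.31 ± 0.05. The groups did not overlap in any of these pairs, with the difference higher in CSF3 in 1 of them and lower in 2. Each of the 6 pairs tested reached p = 0.1 in a two-sided exact permutation test, also 0.1 after adjustment over the 6, the smallest that 3 against 3 arrays can give. After quantile normalization PSMB10 minus PSMB7 shifted by 0.98, PSMB8 minus PSMB5 by -0.37 and PSMB9 minus PSMB6 by -0.25. After cyclic loess these shifts were 0.93, -0.40 and -0.29 in that order. When all probe sets of a gene were averaged, PSMB9 minus PSMB6 turned to 0.11, PSMB10 minus PSMB7 came to 0.34 and PSMB8 minus PSMB5 to -0.11.

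**Figure D4:**
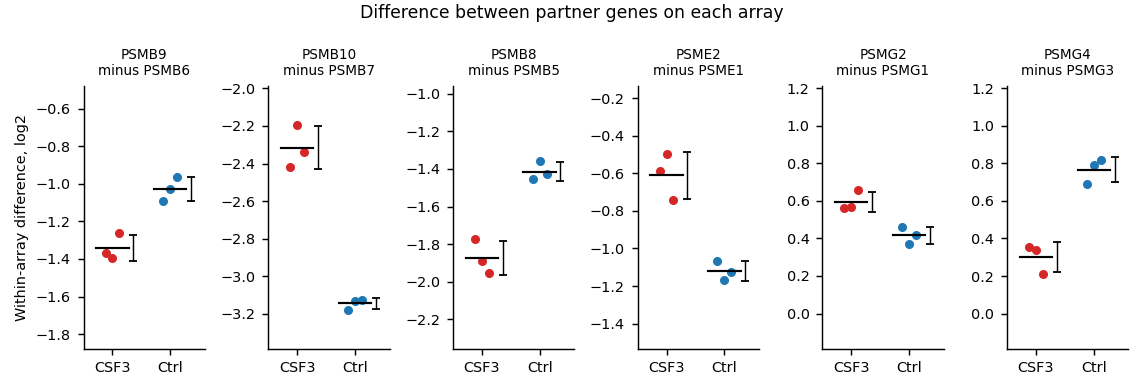
Within-array difference in log2 signal between 6 pairs of genes that replace or bind each other, CSF3 (red) left of Ctrl (blue), with means and SD over 3 arrays. In all pairs the groups are apart, with PSMB10 minus PSMB7, PSME2 minus PSME1 and PSMG2 minus PSMG1 higher in CSF3 and the other pairs lower.

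Most measured 19S subunits did not pass the test on their brightest probe sets. In the base, 3 of 8 measured members fell, 5 did not pass and none rose, and the median change was 0.01. PSMC2, an ATPase, gave 7.57, 7.46 and 7.29 on the CSF3 arrays and 7.78, 7.76 and 7.75 on the Ctrl arrays (-0.32 ± 0.08, limma adjusted p = 0.00749). A dim probe set of PSMC2, at a mean of 3.58, was called lower as deposited (-1.33 ± 0.14) and after quantile normalization (-1.37). Its dimmest one, at 2.42, changed by 0.02 ± 0.17 and was not called. The other ATPases measured, PSMC1, PSMC3, PSMC4 and PSMC6, had changes from 0.01 to 0.12 and did not pass. PSMD1, the larger scaffold, and PSMD4, a ubiquitin receptor, fell by 0.29 ± 0.05 and 0.28 ± 0.05. PSMD2, the other scaffold, gave 9.73, 9.71 and 9.70 in CSF3 and 9.72, 9.72 and 9.67 in Ctrl on its brightest probe set. That is a change of 0.01 ± 0.05 with a 95% interval from -0.10 to 0.12. Both dimmer probe sets of PSMD2 were called lower as deposited (-0.24 ± 0.08 and -0.96 ± 0.07). After quantile normalization the first was not called (-0.13) and the second still was (-0.71). With all probe sets averaged, PSMD2 changed by -0.399 (limma adjusted p = 0.000242). After quantile normalization none of the 3 falls of PSMC2, PSMD1 and PSMD4 was called on the brightest probe sets. There PSMC1, PSMC3, PSMC4 and PSMC6 were called higher, with changes from 0.18 to 0.36. In the lid, PSMD12, which links lid subunits, rose by 0.25 ± 0.05 (limma adjusted p = 0.00532), with 8.39, 8.41 and 8.30 in CSF3 and 8.14, 8.09 and 8.13 in Ctrl. PSMD11 fell by 0.18 ± 0.05, a call lost after quantile normalization (0.01). The second probe set of PSMD11, at a mean of 6.63, was called lower as deposited (-0.80 ± 0.06) and after quantile normalization (-0.55). The remaining lid members measured, PSMD3, PSMD6, PSMD8 and the deubiquitinase PSMD14, had changes from -0.09 to -0.02, with 95% intervals that together ran from -0.21 to 0.09. Dimmer probe sets of PSMD14 (-0.41 ± 0.06) and PSMD3 (-0.22 ± 0.06 and -0.51 ± 0.06) were called lower. The dimmest one of PSMD8, at a mean of 3.95, was called higher (0.90 ± 0.11). With all probe sets averaged, 4 of 8 base members and 5 of 6 lid members were called lower, and 1 lid member higher. In that setting 5112 of all 18132 genes were called lower and 8577 higher. Of the 4533 brightest genes, 2460 were called lower and 933 higher.

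The assembly chaperones changed in both directions: 2 of the 8 measured rose and 4 fell, where 45.4% of all genes rose and 27.1% fell. Their median absolute change was 0.38, against 0.13 over the 27 subunits of the 26S particle and 0.35 over all genes. POMP, which is built into core precursors and is their first substrate, gave 9.21, 9.17 and 9.16 on the CSF3 arrays and 8.73, 8.76 and 8.72 on the Ctrl arrays, a 1.36-fold rise (0.45 ± 0.05, limma adjusted p = 0.000212). PSMG1, which with PSMG2 helps form the alpha ring, gave 7.17, 7.01 and 7.03 in CSF3 and 7.56, 7.56 and 7.59 in Ctrl, a 1.42-fold fall (-0.50 ± 0.06, limma adjusted p = 0.00034). Its partner PSMG2 fell by 0.33 ± 0.06 as deposited but was not called with quantile-normalized values (-0.14). PSMG3 and PSMG4 form the second chaperone pair. PSMG3 gave 6.14, 6.08 and 6.13 in CSF3 and 5.74, 5.66 and 5.66 in Ctrl (0.43 ± 0.05, limma adjusted p = 0.000361). PSMG4 gave 6.49, 6.42 and 6.34 in CSF3 and 6.44, 6.45 and 6.48 in Ctrl, overlapping groups with a change of -0.04 ± 0.06. PSMG4 minus PSMG3 shifted by -0.46 ± 0.06 within arrays and PSMG2 minus PSMG1 by 0.18 ± 0.04.

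Among the chaperones of the 19S base, PSMD5 gave 6.28, 6.43 and 6.49 on the CSF3 arrays and 7.02, 7.0 and 6.96 on the Ctrl arrays, a 1.51-fold fall (-0.59 ± 0.07, limma adjusted p = 0.000257), and its dimmer probe set fell by 0.92 ± 0.11. PSMD5 binds the ATPases during assembly and leaves the finished particle. PSMD10, known as the oncoprotein gankyrin, fell by 0.30 ± 0.07, a call lost after quantile normalization (-0.06). PSMD9 changed by 0.08 ± 0.05 and did not pass.

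Among the activators and the inhibitor, 2 of 5 rose, 2 fell and 1 did not pass. PSME3, a nuclear activator (PA28-gamma) that promotes breakdown of some proteins without ubiquitin, gave 5.73, 5.55 and 5.87 on the CSF3 arrays and 6.55, 6.70 and 6.66 on the Ctrl arrays. This 1.89-fold fall (-0.92 ± 0.09, limma adjusted p = 0.000132) was the furthest of all members, and both other probe sets fell, by 0.54 ± 0.06 and 0.86 ± 0.13. PSME3IP1, the gene of a partner of that protein, gave 6.41, 6.21 and 6.62 in CSF3 and 6.70, 6.51 and 6.57 in Ctrl, with overlapping groups (-0.18 ± 0.11, limma adjusted p = 0.167). PSME2, which forms a mixed ring (PA28-alpha-beta) with PSME1, gave 7.62, 7.64 and 7.45 in CSF3 and 7.25, 7.18 and 7.12 in Ctrl, a 1.31-fold rise (0.39 ± 0.07, limma adjusted p = 0.00209). PSME1 gave 8.21, 8.14 and 8.2 in CSF3 and 8.31, 8.35 and 8.24 in Ctrl, a change of -0.12 ± 0.05 that did not pass (limma adjusted p = 0.08). PSME2 minus PSME1 shifted by 0.51 ± 0.08 within arrays, without overlap of the groups. PSME4, the large single-chain activator PA200, gave 7.65, 7.63 and 7.71 in CSF3 and 7.41, 7.41 and 7.42 in Ctrl (0.25 ± 0.05, limma adjusted p = 0.00318). PSMF1, which encodes the inhibitor PI31, fell by 0.25 ± 0.05 as deposited and not after quantile normalization (-0.02).

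Different probe sets of a member often disagreed. In a limma fit over all probe sets, 19 of the 114 member probe sets rose and 52 fell, against 36.7% and 28.8% of all probe sets. After quantile normalization 38 rose and 31 fell. No share over bright probe sets alone was computed. On the gene level, 22.8% of the 4533 brightest genes rose and 50.2% fell as deposited, and 40.3% and 31.7% after quantile normalization. As deposited, 18 of 34 members with several probe sets had the same sign in every one. In 7 of the 34, probe sets were called in both directions, against 14.5% of all genes with several. These were POMP, PSMB7, PSMB9, PSMD12, PSME4, PSMF1 and PSMG4. PSMD12 had 4 probe sets: the brightest rose by 0.25 ± 0.06 while the third, at a mean of 6.79, fell by 1.27 ± 0.06, so its direction rests on the choice of probe set. PSME4 likewise had 2 of 6 probe sets higher and 2 lower, the lowest at -0.83 ± 0.12. In PSMB9 the dimmest probe set, at a mean of 2.25, rose by 0.90 ± 0.09. PSMB7 was divided by level, as its 3 bright probe sets fell, with changes from -0.62 to -0.24, and its 2 dim ones rose by 0.22 and 0.40. POMP rose on its 2 brighter probe sets and fell by 0.25 ± 0.08 on one with a mean of 3.93. PSMG4 had 1 of 6 probe sets higher and 3 lower, and PSMF1 1 and 4. Of the 15 members called in all 3 scalings, 11 had no probe set called the other way: PSMA4, PSMA5, PSMB1, PSMB6, PSMB8, PSMB10, PSMD5, PSME2, PSME3, PSMG1 and PSMG3. Of these, PSMA5, PSMB6, PSME2, PSMG1 and PSMG3 have 1 probe set only.

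**Figure D5:**
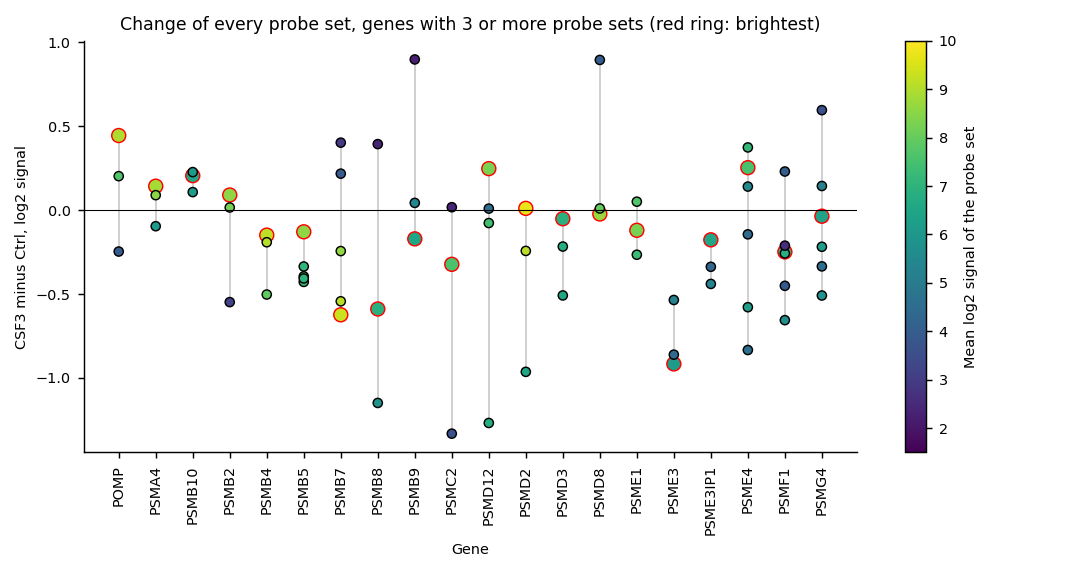
Change (CSF3 minus Ctrl, log2 signal) of every probe set in the 20 members with 3 or more, coloured by mean log2 signal, with the brightest one ringed in red. Probe sets of PSMD12, PSME4, PSMG4 and PSMB9 lie on both sides of 0, while all 3 of PSME3 lie below it and all 3 of PSMB10 above it.

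Genes that work with the proteasome were read from 5 lists chosen by function. Over all genes, 45.4% rose and 27.1% fell as deposited, and 39.8% rose and 19.7% fell after quantile normalization. Of 11 measured partners of the particle, 2 rose and 4 fell as deposited (median change -0.08), while 6 rose and 2 fell after quantile normalization (median 0.18). ZFAND5, a stress-induced activator of the 26S particle, rose by 1.10 ± 0.06 (limma adjusted p = 1.52e-05), with 7 of its 9 probe sets higher and 1 lower. UBE3C and ECPAS, a proteasome-bound ubiquitin ligase and a quality-control scaffold, fell by 1.04 ± 0.09 and 0.89 ± 0.07. Of the 4 probe sets of UBE3C 2 were called lower, and of the 2 of ECPAS both. Among genes that control proteasome transcription, 2 of 7 rose and 3 fell as deposited, and 3 rose and 2 fell after quantile normalization. MAFF and MAFG, small partners of NFE2L1 and NFE2L2 on DNA, rose by 0.67 ± 0.05 and 0.47 ± 0.05, and NFE2L3 of the same family fell by 0.80 ± 0.07. NFE2L1 itself gave 7.35, 7.29 and 7.38 on the CSF3 arrays and 7.37, 7.39 and 7.30 on the Ctrl arrays, a change of -0.01 ± 0.06, and was named after its values were seen. It was called higher after quantile normalization (0.20, limma adjusted p = 0.0141), and 2 of its 6 probe sets were called lower as deposited.

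Of 7 measured genes that deliver ubiquitinated substrates, 5 fell as deposited and none rose, where 27.1% of all genes and 50.2% of the 4533 brightest fell. The list had a median of -0.56 as deposited and -0.33 after quantile normalization, where 4 fell and 2 rose. NPLOC4, a cofactor of the unfoldase VCP, fell by 0.91 ± 0.05 (limma adjusted p = 1.47e-05). Only 1 of its 4 probe sets was called lower, and another changed by 0.28. The shuttle genes UBQLN1 and RAD23B fell by 0.74 ± 0.06 and 0.56 ± 0.06, with 2 of 3 and 5 of 5 probe sets called lower. Of 3 measured genes of ubiquitin supply, the activating enzyme UBA6 fell by 0.70 ± 0.05, though 1 of its 4 probe sets was called higher and 2 lower. UBB and UBA1, with changes of -0.08 and 0.05, did not pass as deposited. UBA1 was called higher after quantile normalization (0.17, limma adjusted p = 0.015), and its second probe set rose by 1.01. Of 8 measured genes that control or use the immunoproteasome, 1 rose and 3 fell as deposited, against 45.4% and 27.1% of all genes. After quantile normalization 3 rose and 3 fell, against 39.8% and 19.7%. IRF1 gave 6.49, 6.5 and 6.37 on the CSF3 arrays and 4.71, 4.96 and 4.91 on the Ctrl arrays, a rise of 1.59 ± 0.08 (limma adjusted p = 1.24e-05). The peptide-trimming enzymes ERAP1 and ERAP2 fell by 0.78 ± 0.07 and 0.89 ± 0.09, with 2 of 5 and 2 of 3 probe sets called lower. The wider GAPDH gap lay on the same CSF3 arrays as these changes.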

How the data were processed

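The labels give biotin-labelled total RNA, and the design text gives Affymetrix arrays. The authors deposited log2 values per probe set, read as log2 from their range. How they were background-corrected, summarised and normalized, and the log base, is not given in the sources used here. Neither scanner files nor detection calls were used. Of 49395 probe sets, 44988 name 1 gene in the platform annotation, 1832 name several and 102 are controls. Symbols were checked by Entrez identifier against RefSeq (GRCh38.p14), which changed 0. The brightest probe set stood for its gene.

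CSF3 minus Ctrl was tested across 18132 genes with lmFit and eBayes of limma 3.58.1 (R 4.3.3), adjusted by Benjamini and Hochberg's method at 0.05, with no filter or covariates. All 44988 probe sets were fitted likewise. On data simulated for CSF3 against Ctrl on 18132 genes, changes of 0.25, 0.5, 1 and 2 were recovered in 8%, 60%, 90% and 98% of 50 genes each, and 5 unchanged genes were called. Far fewer genes changed there than the 72.5% called on the real arrays, which makes the adjusted threshold stricter in the simulation. These shares thus do not give the power of the real test. Within-array pairs were tested by exact two-sided permutation (scipy 1.17.1). The number of arrays limits the precision.

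Values were given array by array for PSMB5 to PSMB10, PSME1, PSME2 and POMP, the 6 largest rises and falls among called members, and up to 6 members with opposing probe sets. PSMC2, PSMD2 and PSME3IP1, and the partner genes NFE2L1 and IRF1, were given array by array outside this rule. Other members were named by class, and from each partner list the 3 with the smallest p. Members, lists, classes and motifs were chosen with earlier results of these data known. Alternatives were quantile normalization, median subtraction, cyclic loess, a filter on the dimmest 30%, other choices of probe set, other eBayes settings, array weights, the replicate block, a change of at least 1 and leaving out each array.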

Additional observations from a re-analysis of the deposited data

Results flagged for a closer look

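Outside the gene probe sets, 4 measures were higher on every CSF3 array than on every Ctrl array. The median of 18 hybridisation control probe sets was 8.36 ± 0.05 on the CSF3 arrays and 6.82 ± 0.07 on the Ctrl arrays (SD, n = 3 each), a difference of 1.53. The median of 24 poly-A control probe sets was 5.61 ± 0.03 on the CSF3 arrays and 4.09 ± 0.25 on the Ctrl arrays, a difference of 1.52. The 3' minus 5' gap was wider by 0.38 for GAPDH and by 0.60 for ACTB on the CSF3 arrays. A dim probe set that carries the symbol PSMD3 under a pair of gene identifiers, and so stayed out of the tests, gave 2.72, 3.05 and 3.23 on the CSF3 arrays and 2.48, 2.44 and 2.49 on the Ctrl arrays, a difference of 0.53. The probe set shared by PSMA6 and PRORP gave 8.71 ± 0.08 on the CSF3 arrays and 8.66 ± 0.03 on the Ctrl arrays, and its groups overlapped.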

How the results depend on the processing

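Over 18 named members and their alternatives, 222 of 269 values kept direction and side of the threshold, 30 lost the call, 1 gained it and 16 reversed. The counts of 10 rises and 18 falls became 18 and 6 after quantile normalization, 20 and 6 after cyclic loess, and 0 and 0 with a change of at least 1, and without 1 array at a time they ran from 5 to 8 rises and 13 to 18 falls. The median over the members became 0.0845 (quantile), 0.0976 (loess) and -0.15 (mean of all probe sets). The core median became 0.03, 0.047 and -0.13 under the same settings, and -0.12 without the dimmest genes. The base median became 0.15, 0.16 and -0.13, -0.0325 with probe sets of no letter suffix, and ran from -0.0012 to 0.0204 without 1 array. The lid median became 0.10, 0.12 and -0.25. The immunoproteasome median became 0.084, 0.064 and 0.18, and 0.39 with probe sets of no letter suffix. Single genes reversed as follows. Under quantile and loess, PSMB5 gave 0.0226 and 0.0405, PSMB9 0.084 and 0.064, PSME1 0.0465 and 0.0639, and PSMG4 0.22 and 0.20. PSMB5, PSMB9 and PSME1 were called in neither, and PSMG4 was called higher in both. Without 1 array at a time PSMG4 ran from -0.0726 to 0.0015. With all probe sets averaged, PSMB9 gave 0.26, PSME4 -0.13, PSMD12 -0.27 and PSMB9 minus PSMB6 0.11. The same averaging reduced PSMB10 minus PSMB7 to 0.34 and PSMB8 minus PSMB5 to -0.11. With probe sets of no letter suffix, PSMB8 gave 0.39, PSMB9 0.90, PSME4 -0.58 and PSMG4 0.60. The cause was not tested. Same-numbered samples share only a number: their deviations correlated at 0.027 to 0.038, each highest with its own number, and the replicate block gave 7 rises and 16 falls. Without detection calls, dim signals cannot be told from background.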
